A study of Rattus norvegicus with 4 samples.

Results

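Fibroblast growth factor (FGF) ligands and their receptors were read on single-colour rat whole-genome arrays hybridised with RNA from the crista ampullaris, the sensory epithelium of the semicircular canals. The set holds 10 genes, chosen by current rat symbol: the receptors Fgfr1, Fgfr2, Fgfr3 and Fgfr4, the secreted ligands Fgf1, Fgf3 and Fgf10, and the intracellular family members Fgf12, Fgf13 and Fgf14. Of these, 7 genes had a named probe, 8 probes in all, among 12334 named genes and 33849 gene probes on the array. No probe was named here for Fgfr3, Fgf13 or Fgf14, so nothing is reported on them. Laser capture took 2 layers of the epithelium, each measured on 2 arrays, 1 per sample. The supporting cell samples held the cell bodies lying on the basal lamina, captured in a second pass. The hair cell samples, captured first, held type I and type II hair cells together with the supporting cell cytoplasm that runs between them, so they are not free of supporting cell material. The labels give no strain, age, sex or treatment, and do not tell whether the 2 samples of a layer are separate animals or captures. P-values therefore measure only the spread between these arrays, possibly a technical one.

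FGF receptors are tyrosine kinases on the cell surface. Secreted FGFs bind them together with heparan sulfate chains, and the receptors then act through the adaptor Frs2 and the Ras and MAP kinase cascade, which switches on ETS factors of the Etv group and the feedback inhibitors of the Sprouty group. Fgf12, Fgf13 and Fgf14 lack a secretion signal and bind voltage-gated sodium channels inside the cell. In mouse, Fgf3 and Fgf10 act in the formation of the inner ear, and Fgf10 is needed for the semicircular canals and their cristae.

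In the supporting cell samples the receptors Fgfr2 and Fgfr4 and the ligand Fgf3 read above background on both arrays. In the hair cell samples Fgfr1 and Fgfr4 did so on both arrays, and Fgf3 on 1 of 2. The probes for Fgf1, Fgf10 and Fgf12, and a second probe for Fgfr2, read below the detection call on all 4 arrays. The difference that held under every setting in which it was tested was that of Fgfr2. After quantile normalization the fitted fold of its brighter probe was 5.96, higher in the supporting cell samples, against a ratio of 3.64 between the raw means. Fgfr1 lay on the other side, higher in the hair cell samples by at least 1.46-fold, and its call was lost under 4 of 12 alternative settings.

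A raw intensity is the scanner software's spot brightness after local background correction, in arbitrary units, so a value can fall below 0, and the software marks each spot as above background or not. The lowest raw intensity marked above background was 18.9 and 20.03 on the supporting cell arrays 1 and 2, and 20.3 and 19.6 on the hair cell arrays 1 and 2. The share of gene probes above background was 39.8% and 39.7% on the supporting cell arrays, against 48.8% and 45.6% on the hair cell arrays, and the median raw intensity was 12.1 and 12.0 against 26.5 and 16.98. The alignment (fiducial) control spots had medians of 5357 and 5221 on the supporting cell arrays, against 5110 and 4995 on the hair cell arrays. Because most gene probes were therefore dimmer in the supporting cell samples, the scaling between arrays moves every change: the median change over the 16483 tested probes was -0.67 on the log2 scale without scaling and 0.01 after quantile normalization, the main setting. Over all 7773 tested genes 28.2% were called higher in the supporting cell samples and 37.2% in the hair cell samples, 65.4% in all. Of 16 tested hair cell markers 13 were called higher in the hair cell samples and 3 were not called, and 3 of the 13 (Cdh23, Espn and Lhfpl5) were not above background in the supporting cell samples. Supporting cell markers did not separate the layers, with 7 higher in the supporting cell samples and 8 higher in the hair cell samples of 17 tested. Sox2 was among the 8 at its brightest probe. Another Sox2 probe had the opposite order, with raw intensities of 45.3 and 50.7 in the supporting cell samples against -0.48 and 3.86. Cldn9, also among the 8, was above background in the hair cell samples only. Pou4f3 and Atoh1, which define hair cells, had no probe named here, and Tmc1 was not above background on any array. Precision is limited by having 2 arrays per layer, and in such tissue fewer cells of a type and less RNA per cell cannot be told apart.

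Core promoter sequence, where the table of promoters holds it, is shown for the receptors and the ligand called higher in the supporting cell samples (Fgfr2, Fgfr4, Fgf3) and, for contrast, for the receptor-like gene Fgfrl1, called higher in the hair cell samples. Each run is RefSeq sequence of build GRCr8, 5′ to 3′ on the gene's own strand, from 250 bases before to 50 bases after the annotated start, and capitals mark GC boxes (GGGCGG on either strand).
Fgfr2, chr1:194280865-194281164, minus strand: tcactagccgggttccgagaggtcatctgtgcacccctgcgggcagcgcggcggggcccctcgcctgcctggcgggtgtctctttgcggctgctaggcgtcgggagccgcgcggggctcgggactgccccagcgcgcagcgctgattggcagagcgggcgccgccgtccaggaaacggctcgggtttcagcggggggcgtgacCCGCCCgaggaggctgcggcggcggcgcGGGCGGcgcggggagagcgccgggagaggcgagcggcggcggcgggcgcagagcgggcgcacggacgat
Fgfr4, chr17:9481340-9481639, minus strand: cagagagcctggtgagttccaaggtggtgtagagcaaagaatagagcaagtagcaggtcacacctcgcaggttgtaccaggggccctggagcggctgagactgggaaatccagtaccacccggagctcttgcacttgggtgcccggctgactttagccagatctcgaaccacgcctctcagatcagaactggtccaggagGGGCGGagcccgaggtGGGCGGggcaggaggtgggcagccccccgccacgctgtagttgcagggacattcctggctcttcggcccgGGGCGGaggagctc
Fgf3, chr1:209430207-209430506, plus strand: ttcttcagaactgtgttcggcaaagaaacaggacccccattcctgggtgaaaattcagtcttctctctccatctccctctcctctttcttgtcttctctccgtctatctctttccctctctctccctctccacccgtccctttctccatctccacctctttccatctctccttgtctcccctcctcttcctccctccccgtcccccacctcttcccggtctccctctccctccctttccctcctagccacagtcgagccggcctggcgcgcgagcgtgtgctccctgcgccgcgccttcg
Fgfrl1, chr14:1166285-1166584, minus strand: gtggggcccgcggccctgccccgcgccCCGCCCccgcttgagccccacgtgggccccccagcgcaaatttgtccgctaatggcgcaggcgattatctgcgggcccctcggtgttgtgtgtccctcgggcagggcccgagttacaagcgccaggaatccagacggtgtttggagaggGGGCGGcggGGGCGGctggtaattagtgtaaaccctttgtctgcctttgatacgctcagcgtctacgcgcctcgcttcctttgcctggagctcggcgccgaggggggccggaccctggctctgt
The GC box was matched 2 times in the Fgfr2 window, 3 times in that of Fgfr4 and 3 times in that of Fgfrl1, and not in that of Fgf3. It was present in 33.1% of all 33469 promoter windows of this length. The Fgfr2 window had a GC content of 77.7% with 48 CpG dinucleotides, Fgfr4 63.3% with 14, Fgf3 59.0% with 15 and Fgfrl1 68.0% with 29, against medians of 51.7% and 7 over all windows. None of these 4 windows held TATAAA or the SOX core ACAAT on either strand, letters found in 14.2% and 33.7% of all windows. These matches describe the windows only, and no probe sequence was available to place a probe within its transcript.

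Fgfr2 codes for the receptor of Fgf10 and related ligands in epithelia, through its epithelial splice form. Its probe GE19320 had raw intensities of 78.1 and 74.7 in the supporting cell samples, both above background, against 21.3 and 20.7 in the hair cell samples, neither above background. The means were 76.4 ± 2.37 and 21.0 ± 0.465 (SD, n = 2 each), and the layers did not overlap. After quantile normalization the change, supporting minus hair cell samples, was 2.58 ± 0.18 on the log2 scale (SE, adjusted p = 0.00255 by limma). Within that normalization the fitted fold of GE19320 was 5.96, against a ratio of raw means of 3.64. Both hair cell values lay above the lowest detected intensity of their arrays, so no separate lower limit is given. Without hair cell replicate 1 the log2 change of GE19320 was 2.36. Its log2 change was 1.86 without scaling between arrays and lay between 1.86 and 2.79 over all 12 alternatives, past the test in each. The second Fgfr2 probe, GE1102996, had raw intensities of 3.57 and 12.7 in the supporting cell samples, against 10.8 and -3.57 in the hair cell samples, all below the detection call, so the 2 probes of the gene do not bear each other out. Which splice form either probe reads is unknown.

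Among marker lists of other cell types, 3 had larger summed signals in the supporting cell samples, the layer where Fgfr2 was higher. The normalized sums of the Schwann cell list overlapped, with 4508 and 4431 in the supporting cell samples against 4451 and 4560 in the hair cell samples. Those of the immune and blood list were larger in the hair cell samples, with 219 and 188 against 352 and 356. Among 10 tested endothelial and pericyte genes, 7 were called higher in the supporting cell samples and 1, Vwf, in the hair cell samples, and the summed normalized intensity of the 11 summed members was 1636 and 1674 there against 647 and 659 in the hair cell samples, with Kdr and Pdgfrb not above background on any array. Of 6 tested connective tissue genes 3 were called higher in the supporting cell samples and 1, Fbn1, in the hair cell samples, with sums of 2337 and 2368 against 998 and 1014 and with Lum, Postn and Pdgfra not above background. Of 7 tested neuronal genes 5 were higher there and 2 in the hair cell samples, with sums of 1077 and 1060 against 360 and 375 and with Nefh not above background. Of 3 tested melanocyte and dark cell genes 2 were higher there and 1, Pmel, in the hair cell samples. Pmel read 161 and 151 in the supporting cell samples, against 4114 and 3068 in the hair cell samples, in raw intensity. The 4114 was flagged as contaminated, so Pmel is not in the sums of this list. Without Pmel these were 1801 and 1873 against 1285 and 1261. In raw intensity they had the opposite order, 1399 and 1385 against 1686 and 1464. No direction is therefore given for this list. Tyr and Kcne1 were not above background on any array, and Kcnq1 was above it on 1 hair cell array only. Over all tested genes 28.2% and 37.2% were called in these directions. Esam, Rgs5, Thy1 and Mitf entered the test only through the supporting cell samples, and Fbn1, Nefl and Nefm only through the hair cell samples. The counts therefore cannot be read as a lean of these lists. The part of these cell types in the Fgfr2 signal was not tested.

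Fgfr4 was the only member above background on all 4 arrays. Its probe GE1263962 had raw intensities of 203 and 226 in the supporting cell samples, against 175 and 168 in the hair cell samples. The layers did not overlap, and the raw means of 215 and 172 differed by a ratio of 1.25. After quantile normalization the intensities were 262 and 304 against 134 and 147, a log2 change of 1.01 ± 0.12 (SE, adjusted p = 0.00705 by limma). Without scaling between arrays the log2 change was 0.32, which is not past the threshold (adjusted p = 0.0984 by limma).

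Fgfr1 codes for a receptor found widely in mesenchyme and neural tissue. Its probe GE1238779 had raw intensities of 18.2 and 14.2 in the supporting cell samples, neither above background, against 54.6 and 44.1 in the hair cell samples, both above background. The means were 16.2 ± 2.81 and 49.4 ± 7.42 (SD, n = 2 each), without overlap. The fitted log2 change was -0.80 ± 0.15 (SE, adjusted p = 0.0180 by limma), which corresponds to a signal higher in the hair cell samples by at least 1.46-fold, and without scaling the fitted log2 change was -1.61. The call was lost without hair cell replicate 1 (adjusted p = 0.0967 by limma) and without hair cell replicate 2 (adjusted p = 0.0947 by limma), where the fitted log2 change was -0.80 in each. A further probe, GE21554, is annotated both to Fgfr1 and to its pseudogene and was not assigned to either. It read 5.57 and 5.87 in the supporting cell samples, against 4.20 and 0.5 in the hair cell samples, all below the detection call.

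**Figure D1:**
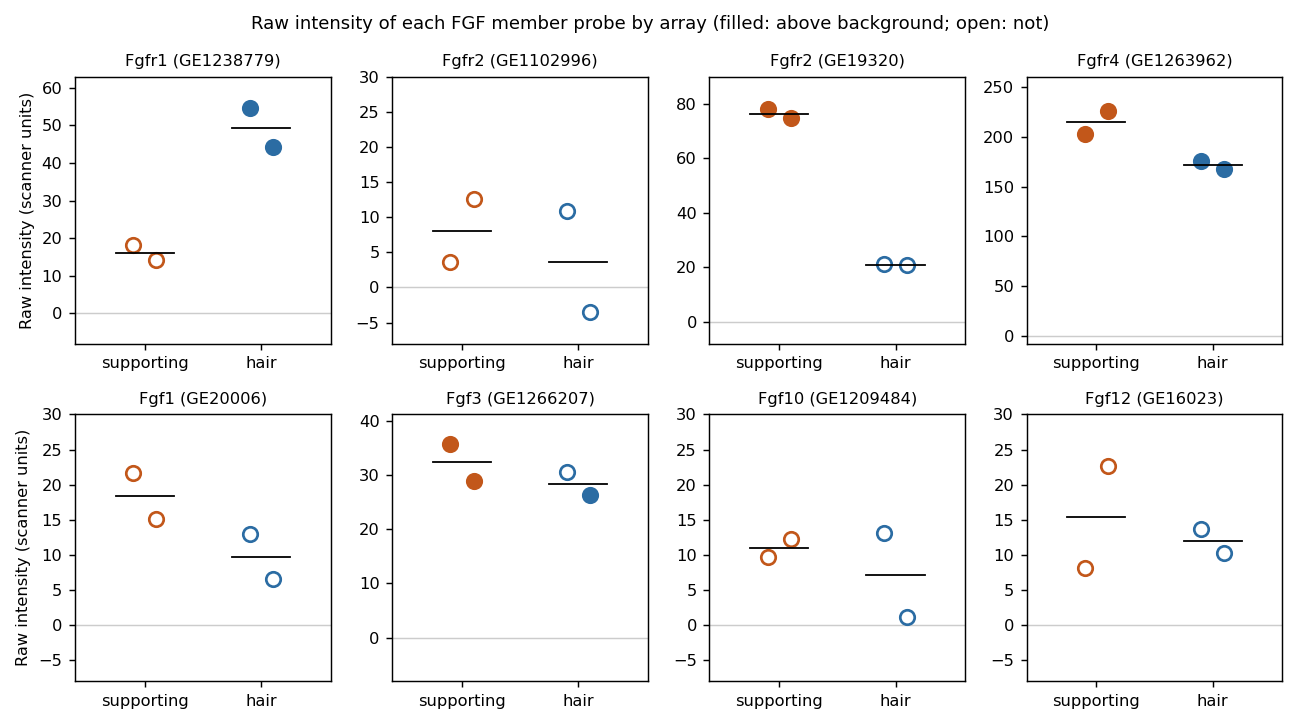
Raw intensity (scanner units, linear axis) of each of the 8 member probes, with 1 point per array, supporting cell samples left and hair cell samples right; filled points are above background, open points are not, and lines are means of 2 arrays. Fgfr2 (GE19320) sits at 74.7 to 78.1 against 20.7 to 21.3, Fgfr1 has the opposite order, and the points of Fgf3 overlap.

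Among the ligands Fgf3, which in mouse takes part in otic induction, was the one with signal above background. Its probe GE1266207 had raw intensities of 35.8 and 28.9 in the supporting cell samples, against 30.5 and 26.3 in the hair cell samples, where the 30.5 was not marked above background although lower values elsewhere on that array were. The raw values of the layers overlapped. After quantile normalization the intensities were 46.0 and 38.1 against 20.1 and 23.6, a log2 change of 0.94 ± 0.15 (SE, adjusted p = 0.0142 by limma). Without scaling the log2 change was 0.18 (adjusted p = 0.405 by limma), and the call was also lost without hair cell replicate 1 (adjusted p = 0.0738 by limma) and without hair cell replicate 2 (adjusted p = 0.0521 by limma), with log2 changes of 0.83 and 1.06. For scale, the probe of the Fgfr1 pseudogene, GE22010, was equally bright in raw intensity, with means of 32.1 in the supporting cell samples and 32.2 in the hair cell samples, and its quantile-normalized log2 change was 0.75 ± 0.22 (adjusted p = 0.0535 by limma).

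Fgf1, the ligand that binds all FGF receptors, had raw intensities of 21.7 and 15.1 in the supporting cell samples, against 12.97 and 6.51 in the hair cell samples (probe GE20006). Fgf10, the main ligand of the epithelial form of Fgfr2, had 9.68 and 12.3 in the supporting cell samples, against 13.2 and 1.17 in the hair cell samples (probe GE1209484). Fgf12, an intracellular family member and sodium channel partner, had 8.10 and 22.6 in the supporting cell samples, against 13.7 and 10.3 in the hair cell samples (probe GE16023). The Fgf1 values of the layers did not overlap while those of Fgf10 and Fgf12 did, and all 12 values were below the detection call, so no difference was detectable for these 3 genes. They did not enter the test with the filter on dim probes, and without that filter none of the 3 was called.

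All 4 member probes that entered the test were called, 3 higher in the supporting cell samples (Fgfr2, Fgfr4, Fgf3) and 1 higher in the hair cell samples (Fgfr1). Over all tested probes 67.4% were called, 33.5% higher in the supporting cell samples and 33.9% higher in the hair cell samples. Fgfr1 and Fgfr2 entered the test through the layer where they are bright, so the count says nothing about the set. Without scaling between arrays only Fgfr2 and Fgfr1 were called, in the same directions, beside 14.3% of all tested probes higher in the supporting cell samples and 53.6% higher in the hair cell samples.

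**Figure D2:**
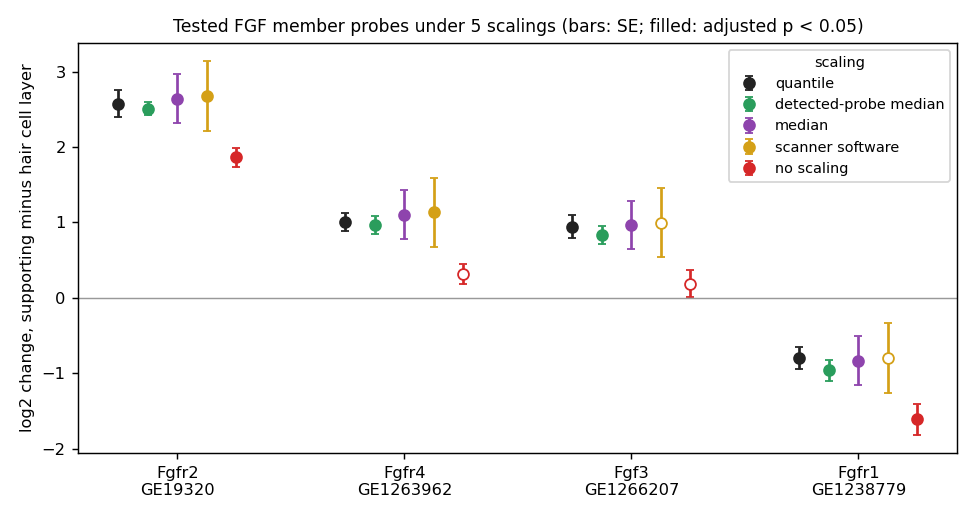
Log2 change (supporting minus hair cell samples) of the 4 tested member probes under 5 scalings between arrays; bars are standard errors from limma, and filled points passed an adjusted p of 0.05. Fgfr2 and Fgfr1 keep their sign and pass without scaling (1.86 and -1.61), whereas Fgfr4 and Fgf3 drop to 0.32 and 0.18 and do not pass.

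By closeness of its profile over the 4 arrays (Euclidean distance between mean-centred log2 values), the nearest of 5782 other genes to Fgfr4 were Cpne1, at 0.017, and Neu3, at 0.051. With only 4 arrays such closeness is common: 129 genes lay within 0.2 of Fgfr4.

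Of the other FGF genes, 12 had a named probe, and 10 of these were below the detection call on all 4 arrays, with raw intensities from -5.26 to 13.6 in the supporting cell samples and from -2.60 to 14.7 in the hair cell samples. With no filter on dim probes 1 of these 10, Fgf18, was called higher in the supporting cell samples (log2 change 2.45, adjusted p = 0.0237 by limma), from raw intensities of 6.72 and 8.81 there against 2.44 and -1.33 in the hair cell samples. Fgf5 and Fgf8, picked out here because they alone were detected, were above background on all 4 arrays. Fgf8 had raw intensities of 30.3 and 33.8 in the supporting cell samples, against 63.8 and 50.8 in the hair cell samples, a log2 change of -0.16 ± 0.09 (adjusted p = 0.195 by limma). Fgf5 had 32.5 and 39.0 against 62.9 and 43.1, a log2 change of 0.12 ± 0.16 (adjusted p = 0.542 by limma). Limma called 0 of these 2, and 0 at an unadjusted p of 0.05. Without scaling Fgf8 was called lower in the supporting cell samples, with a log2 change of -0.83 (adjusted p = 0.0162 by limma). The 1 spot annotated to Fgf2 carries an accession of another gene, its antisense neighbour Nudt6, and was assigned to neither.

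Fgfrl1 codes for an FGF-binding receptor without a kinase domain. It was higher in the hair cell samples, with raw intensities of 155 and 165 in the supporting cell samples, against 571 and 468 in the hair cell samples. Its log2 change was -1.01 ± 0.10 (adjusted p = 0.00462 by limma), and it kept its sign in all 14 settings, the main one included. The call was lost with the scanner software's normalized intensity (adjusted p = 0.114 by limma). Fgfrl1 was the 1 tested gene of the list of co-receptors and FGF-binding proteins. Kl, Flrt2, Flrt3 and Fgfbp1 were below the detection call on all 4 arrays, and Fgfbp3 was above it on 1 supporting cell array only.

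Heparan sulfate genes, whose products present FGFs to their receptors, differed in both directions. Of 13 tested, 9 were higher in the hair cell samples and 2 in the supporting cell samples, beside 37.2% and 28.2% of all tested genes. The median log2 change was -0.90, against -0.10 over all 7773 tested genes. Sulf1, Gpc4 and Gpc3 entered the test only through the hair cell samples, so this count cannot be read as a lean of the list. On probes detected on all 4 arrays, 9 were tested, 4 called higher in the supporting cell samples and 5 in the hair cell samples, beside 36.9% and 37.5% of all 5783 genes tested there, 74.4% in all. The signal of Sulf1, an enzyme that removes sulfate groups from the chains, was higher in the hair cell samples by at least 4.70-fold (adjusted p = 0.00142 by limma), with raw intensities of 1.90 and 2.83 in the supporting cell samples, against 164 and 151 in the hair cell samples. The core proteins Gpc4 and Gpc3 were higher in the hair cell samples by at least 3.07-fold and 1.90-fold (adjusted p = 0.00115 and 0.0124 by limma), neither above background in the supporting cell samples. The call of Gpc3 was lost without hair cell replicate 1 or 2 (adjusted p = 0.0783 and 0.0789 by limma). The other 6 genes higher in the hair cell samples had log2 changes between -1.59 and -0.68. Of these Hs3st2 (-1.59), Gpc1 (-1.57) and Hs2st1 (-1.32), named after their values were seen, were above background on all 4 arrays and passed in every setting run. The core protein Gpc2 went the other way with a log2 change of 2.18 ± 0.22 (adjusted p = 0.00495 by limma), from raw intensities of 787 and 1076 in the supporting cell samples, against 347 and 307 in the hair cell samples. Sdc3 was higher in the supporting cell samples as well (0.81 ± 0.07, adjusted p = 0.00391 by limma), and without scaling its log2 change was 0.10 and did not pass (adjusted p = 0.552 by limma).

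Of 11 tested genes that relay the receptor signal, 3 were called higher in the supporting cell samples and 1 in the hair cell samples, beside 28.2% and 37.2% of all tested genes, with a median log2 change of 0.11. Pik3ca, not called at its brightest probe, was called higher in the hair cell samples at another probe (-0.91 ± 0.08, adjusted p = 0.00419 by limma). The adaptor Crk had a log2 change of 1.602 ± 0.202 (adjusted p = 0.00797 by limma), phospholipase Plcg1 one of 0.70 ± 0.08 (adjusted p = 0.00645 by limma) and the adaptor Shc1 one of 0.30 ± 0.07 (adjusted p = 0.0330 by limma). The Crk call rests on 1 probe, and the other Crk probes were below the detection call on all 4 arrays. Without scaling the log2 change of Plcg1 was 0.07 (adjusted p = 0.657 by limma), and that of Shc1 had the opposite sign (-0.41). Frs2, the docking protein that FGF receptors phosphorylate, was higher in the hair cell samples, with a log2 change of -0.50 ± 0.08 (adjusted p = 0.0131 by limma) and raw intensities of 538 and 478 in the supporting cell samples, against 1230 and 1135 in the hair cell samples. Frs2 was lost without hair cell replicate 1 or 2, and Shc1 without any 1 of the 4 arrays. The Frs2 call was also lost with median scaling (adjusted p = 0.263 by limma) and with the scanner software's values (adjusted p = 0.506 by limma). The same held with no filter on dim probes (adjusted p = 0.107 by limma) and with the replicate block (adjusted p = 0.0525 by limma).

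Of 6 tested feedback inhibitors and transcriptional targets of FGF signalling, 3 were called higher in the supporting cell samples and 2 in the hair cell samples, beside the same 28.2% and 37.2%, with a median log2 change of 0.07. Spry4 entered the test only through the hair cell samples, so this count cannot be read as a lean of the list. The feedback inhibitor Spry4 had a signal higher in the hair cell samples by at least 3.46-fold (adjusted p = 0.00352 by limma), with raw intensities of 22.4 and 16.9 in the supporting cell samples, against 129 and 122 in the hair cell samples. Spry2, of the same group, had a log2 change of -0.65 ± 0.08 (adjusted p = 0.00714 by limma), with 962 and 958 in the supporting cell samples against 2625 and 2233 in the hair cell samples in raw intensity. The Spry2 call was lost with median scaling (adjusted p = 0.151), with the scanner software's values (adjusted p = 0.381) and with no filter on dim probes (adjusted p = 0.0695), all by limma. The ETS factor Etv4 was higher in the supporting cell samples, with a log2 change of 1.22 ± 0.25 (adjusted p = 0.0240 by limma) and raw intensities of 38.3 and 35.5 against 25.2 and 28.7, a call lost without supporting cell replicate 1 or 2 (adjusted p = 0.0764 and 0.0686 by limma). Etv1 had a log2 change of 0.89 ± 0.08 at its brighter probe, and -0.39 ± 0.09 at its other probe, both called, so the gene has no single direction. Without scaling the brighter Etv1 probe did not pass (0.18, adjusted p = 0.375 by limma). The MAP kinase phosphatase Dusp5 had a log2 change of 0.57 ± 0.14 (adjusted p = 0.0346 by limma), with the opposite sign without scaling (-0.08), and was lost without hair cell replicate 1 or 2 or supporting cell replicate 2 (adjusted p up to 0.151 by limma). Etv5 did not pass (-0.44 ± 0.19, adjusted p = 0.123 by limma). Spry1 was above background on 1 hair cell array only and Dusp6 on none, so neither was tested.

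Of 6 tested sodium channels and kinase scaffolds that bind the intracellular FGFs, 3 were called higher in the supporting cell samples and 2 in the hair cell samples, again beside 28.2% and 37.2% of all tested genes, with a median log2 change of 0.35. The signal of Scn9a was higher in the hair cell samples by at least 3.32-fold (adjusted p = 0.0212 by limma), with raw intensities of 11.4 and 3.98 in the supporting cell samples, against 123 and 100.4 in the hair cell samples. The scaffold gene Mapk8ip1 was called higher there as well (adjusted p = 0.0484 by limma), with no lower limit of fold above 1. Both entered the test only through the hair cell samples. Scn8a had a log2 change of 0.76 ± 0.16 (adjusted p = 0.0262 by limma) and did not pass without scaling (0.10, adjusted p = 0.526), while Scn10a (0.49 ± 0.13) and Scn4a (0.32 ± 0.08) had the opposite sign without scaling (-0.21 and -0.37). Each of these 5 calls was lost when 1 array was left out: Scn9a without either hair cell array, Scn8a without either supporting cell array, Scn10a without supporting cell replicate 2 or either hair cell array, and Scn4a and Mapk8ip1 without any 1 of the 4 (largest adjusted p 0.180, by limma, for Scn10a without hair cell replicate 1). Over the 6 lists together 11 of 39 tested genes were called higher in the supporting cell samples and 15 in the hair cell samples, shares near the 28.2% and 37.2% of all tested genes. Without scaling between arrays the split was 3 and 22, beside 9.21% and 59.7% of all tested genes, 69% in all. Of the 26 called genes, 8 passed in every alternative run that they entered, namely Sulf1, Gpc4, Gpc2, Gpc1, Hs2st1, Hs3st2, Crk and Spry4. Of these Sulf1, Gpc4 and Spry4 did not enter the run restricted to probes detected on all 4 arrays.

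**Figure D3:**
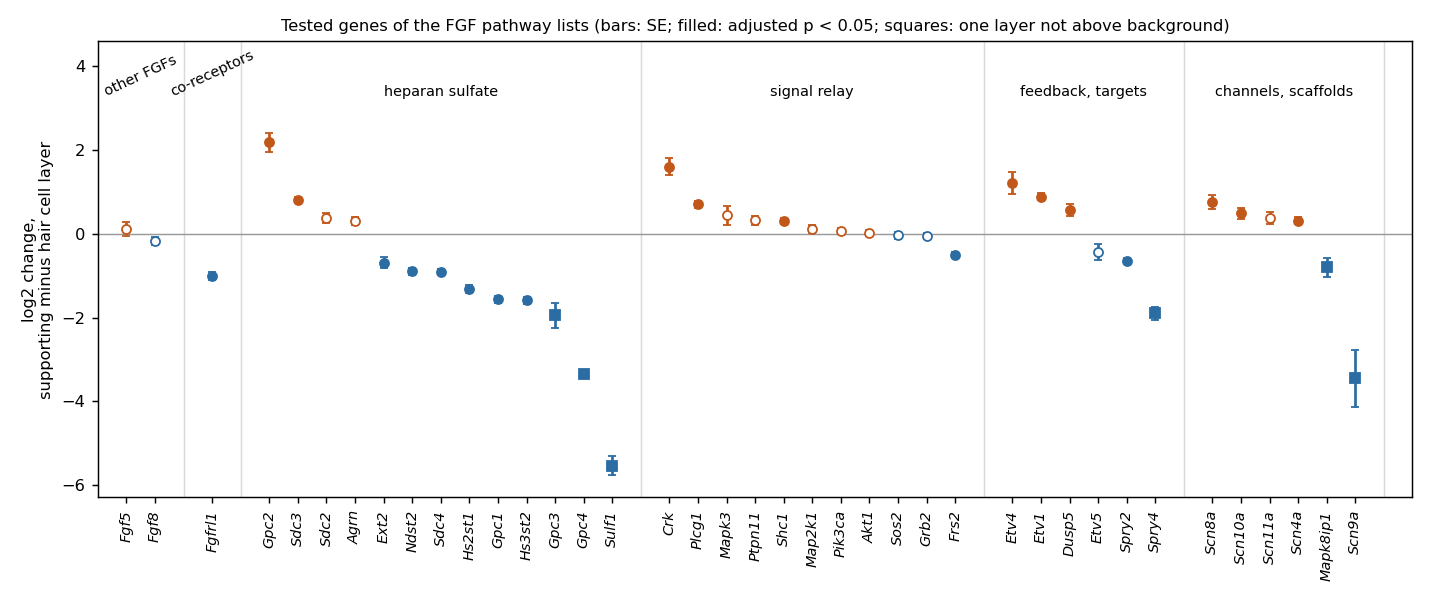
Fitted log2 change (supporting minus hair cell samples) of the 39 tested genes of 6 FGF pathway lists, each at its brightest probe; bars are standard errors from limma, filled points passed an adjusted p of 0.05, and squares mark genes not above background in 1 layer, where the fitted value does not measure the size. Of 13 heparan sulfate genes 9 lie below 0 and pass, 3 of them squares, and filled points of the signal relay, feedback and sodium channel lists lie on both sides of 0.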

How the data were processed

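Biotin-labelled cRNA, made by linear amplification of polyadenylated RNA, was hybridised to 4 arrays, per the labels' protocols. Quantification used CodeLink Expression Analysis 4.0.0.23520, per the file headers. The deposited scanner files give a background-corrected raw intensity, an intensity divided by the array median, and a quality flag. In the deposited series table the column of supporting cell replicate 2 was shifted by 2 rows and was not used; the other 3 columns equalled the scanner files and carried the platform's probe names, updated to GRCr8 RefSeq symbols. Spots flagged as contaminated, irregular or failed were left out.

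Raw intensities were quantile-normalized, floored at 0.1 of the normalized median, taken to log2 and tested with limma 3.58.1 (R 4.3.3; no trend or block, two-sided, Benjamini-Hochberg over all tested probes, called at an adjusted p under 0.05). Probes above background on at least 2 of 4 arrays were tested, 16483 in all, and a pathway gene took its brightest tested probe. Where a layer was not above background, a fold is a lower limit: the bright layer's mean log2 value against, per array, the higher of the probe's own value and the lowest detected intensity (26.6 and 28.3 in the supporting cell samples, 13.9 and 18.5 in the hair cell samples, after normalization). The limit holds for that normalization only, and a spot above that lowest intensity can still lack the detection call. Fgfr2 in the hair cell samples is such a case, so its fold is the fitted one and not a limit. The fit was tested on simulated data.

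Members and lists were chosen with earlier results of these data known. Named were all member probes, the 3 largest called changes in each direction of each pathway list, and Spry1, Spry2, Spry4, Dusp6, Etv1, Etv4, Etv5, Fgf2 and Fgfrl1. Alternatives covered scaling, filter, floor, variance trend, replicate block, probe averaging and leaving out each array; scaling to the median of probes detected on all 4 arrays and no scaling were added after seeing the data. Lists of Schwann and of immune and blood genes were counted as well: of 9 and 7 tested genes, 2 and 2 were higher in the supporting cell samples and 4 and 3 in the hair cell samples.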

Additional observations from a re-analysis of the deposited data

How the results depend on the processing

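Of 49 values of the 4 tested member probes under alternatives, all kept their sign, 38 kept their side of the threshold and 11 no longer passed: 6 of 12 for Fgf3, 4 of 12 for Fgfr1, 1 of 13 for Fgfr4 and 0 of 12 for Fgfr2. The 4 called member probes became 2 with the scanner software's normalized intensity, 2 with no filter on dim probes, 1 where only probes detected on all 4 arrays were tested (Fgfr4 alone entered) and 2 without scaling, and 2 to 4 when an array was left out. The 26 called pathway genes became 11 with the scanner software's values and 15 without a filter, and 17 to 21 when an array was left out; without hair cell replicate 1 or 2 there were 17. Restricted to probes detected on all 4 arrays, 23 of 31 tested genes were called, 15 higher in the supporting cell samples and 8 in the hair cell samples. Over all 5783 genes tested there 36.9% and 37.5% were called in these directions, 74.4% in all. The 7 called genes that did not enter were all higher in the hair cell samples, so this split cannot be read as a lean of the lists. Agrn, Sdc2, Ptpn11 and Scn11a passed in addition, with the same log2 changes. Another probe of Sdc2, GE1144374, was called the other way in the main setting (-0.78 ± 0.13, adjusted p = 0.0153 by limma). The 11112 called probes became 6879 with the scanner software's values and 6654 without a filter, and 7181 to 9991 when an array was left out, lowest without hair cell replicate 1. Leaving out an array also lowers the degrees of freedom; otherwise the cause was not tested. Same-numbered arrays of the layers did not deviate together (correlation of deviations -0.002). With only 1 replicate difference per layer, this cannot tell whether the numbers pair the arrays. With the replicate number as a block, 8701 probes, 20 pathway genes and 3 member probes were called, Fgf3 being lost (adjusted p = 0.0523 by limma). Signal over background limits Fgf1, Fgf10, Fgf12, the second Fgfr2 probe and 10 other FGF probes, which read below the detection call on all 4 arrays; of these only Fgf18 was called with no filter on dim probes (adjusted p = 0.0237 by limma).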
